A study of Homo sapiens with 8 samples.

Results

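The feedback genes of the ERK pathway followed here are 10 genes that many cells switch on when ERK is active: the phosphatase genes DUSP4, DUSP5 and DUSP6, the Sprouty genes SPRY1, SPRY2 and SPRY4, the related genes SPRED1 and SPRED2, and the transcription factor genes ETV4 and ETV5. They were taken by name, with earlier results of these data known, and are 10 of the 67060 genes of the count table. All 10 passed the filter on low counts that left 21993 genes to test. RNA sequencing was done on 8 libraries of SH-SY5Y, an established human neuroblastoma cell line that the labels call a neuronal progenitor. In the ERRg group, 4 libraries came from cells given an adenovirus for BioID-Flag-ERRg, the nuclear receptor ERRg (gene ESRRG) with a Flag tag and BioID, a biotin ligase used to label proteins that lie near its partner. In the GFP group, 4 libraries came from cells given an adenovirus for BioID-GFP-NLS, a nucleus-targeted green fluorescent protein with the same ligase, so the controls also carried virus and BioID. All cells were at 80% confluence, received 0.5 ul of virus and were harvested at 48 hours. The comparison is therefore between cells with a surplus of a fused receptor and cells with a fused control protein, and cells without virus were not analysed here. Nothing in the labels says whether the libraries of a group are separate cultures, and the p-values below then reflect only library-to-library spread, which may be technical.

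Growth factor receptors pass their signal through adaptors to RAS, and from RAS through the kinases RAF and MEK to ERK, which phosphorylates other kinases and transcription factors. ERK signalling limits itself by inducing inhibitors. DUSP4 and DUSP5 are nuclear phosphatases and DUSP6 is a cytoplasmic phosphatase that remove phosphate from MAP kinases. Sprouty and SPRED proteins act upstream of ERK, between the receptors and RAF. ETV4 and ETV5 are ETS-family activators that are induced with the inhibitors, so RNA of all of these genes is often read as a sign of ERK output. ERRg is an orphan nuclear receptor known for its role in mitochondrial metabolism in heart, muscle and neurons.

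Of the 10 genes, 6 were matched in the promoter table of RefSeq (GRCh38.p14): DUSP6, SPRY1, SPRY2, SPRY4, SPRED1 and SPRED2. Sequence upstream of a start site is shown for the Sprouty genes, because SPRY1 and SPRY2 were lower in ERRg libraries and SPRY4 was not. They are the SPRY1 stretch on the plus strand at chr4:123396545-123396794, the SPRY2 stretch on the minus strand at chr13:80341127-80341376, and the SPRY4 stretch on the minus strand at chr5:142324418-142324497. The SPRY1 and SPRY2 stretches are the 250 bases before a RefSeq start site and lie outside the gene in GENCODE release 29. The SPRY4 start site lies inside the gene, 2208 bases from its 5′ end, and the 80 bases shown are the part of its window outside annotated exons. Each is written 5′ to 3′ in the direction of the gene and holds none of the motifs named below, so no base is in capitals.
SPRY1: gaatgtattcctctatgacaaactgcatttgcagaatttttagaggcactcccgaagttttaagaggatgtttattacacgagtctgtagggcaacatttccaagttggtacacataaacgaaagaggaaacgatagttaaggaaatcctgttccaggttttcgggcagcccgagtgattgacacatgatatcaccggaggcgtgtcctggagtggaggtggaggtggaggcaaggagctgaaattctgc
SPRY2: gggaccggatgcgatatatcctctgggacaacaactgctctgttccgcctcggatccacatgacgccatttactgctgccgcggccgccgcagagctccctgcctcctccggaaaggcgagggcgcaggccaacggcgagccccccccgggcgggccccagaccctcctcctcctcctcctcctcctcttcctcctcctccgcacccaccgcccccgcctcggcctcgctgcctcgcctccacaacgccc
SPRY4: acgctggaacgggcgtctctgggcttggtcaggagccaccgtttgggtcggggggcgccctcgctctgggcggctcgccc
The SPRY1 stretch of 250 bases has a GC content of 45.6%. The SPRY2 stretch of 250 bases has a GC content of 70.4%, and the SPRY4 stretch of 80 bases has one of 73.8%. A search of windows of 300 bases (250 before to 50 after a start site) on both strands covered 10 windows of these 6 genes. AAGGTCA, the core sequence bound by estrogen-related receptors, lay in 1 of the 10 windows, that of SPRY4 at base 43 after the start site, and in 3.92% of all 35116 promoters of the table. The longer form TCAAGGTCA, which contains it, lay in 0 of the 10 windows and in 0.353% of all promoters. CCGGAAG, a core sequence of ETS factors, lay in a second window of SPRY1, 67 bases before its start site, and in 10.3% of all promoters. TGANTCA, the AP-1 element, lay in a second window of SPRED2 and in 7.71% of all promoters, and TGACGTCA, the element of CREB, lay in none of the 10 windows and in 1.85% of all promoters. The same SPRED2 window held TATAAA, present in 11.5% of all promoters. A match describes letters only and was not tied to binding.

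ESRRG, the gene delivered by the virus, averaged 34.9 ± 2.34 CPM (counts per M gene reads, scaled by TMM) in the control libraries and 808 ± 73.2 CPM with the receptor virus (SD, 4 libraries per group). The exact permutation p, two-sided, was 0.0286, below which 4 against 4 libraries cannot go, and reads of the virus and of the cells' own gene are not separated. Each GFP library held between 27.7 and 35.5 M gene reads and each ERRg library between 21.02 and 23.0 M. Reads outside annotated exons made up 16.2% to 24.2% of all reads in GFP and 45.5% to 48.3% in ERRg, a gap that follows the groups and so cannot be told apart from them. Of 12 marker genes of SH-SY5Y and other adrenergic neuroblastoma cells, 9 had at least 1 CPM in all libraries, and TH and CHGA are listed at 0. These markers summed to 897 to 1020.0 CPM in GFP and 587 to 655 CPM in ERRg. Of 8 genes of mesenchymal-type neuroblastoma cells or fibroblasts, 7 reached that level, and the 8 summed to 4380 to 4943 CPM in GFP and 3037 to 3376 CPM in ERRg. Their part in the results below was not tested. Markers of Schwann cells, blood, endothelium and epithelium summed to at most 3.78 CPM per list in any library. In bulk samples, fewer cells of a type and less RNA per cell cannot be told apart.

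The feedback genes did not move as a block. SPRY1, SPRY2, DUSP5 and ETV4 had 44.3% to 51.9% of their GFP level in ERRg libraries, ETV5 had 63.6% and DUSP4 had 80.6%. DUSP6, SPRY4, SPRED1 and SPRED2 had between 89.5% and 115% of the GFP level, and their differences did not pass the test. By edgeR's quasi-likelihood test with TMM scaling and Benjamini-Hochberg adjustment over all genes, 6 of the 10 were lower at an adjusted p under 0.05, where 35.9% of all tested genes were lower. None of the 10 was higher, where 38.8% of all tested genes were higher, and at an unadjusted p under 0.05 SPRED1 was the only one higher. The median log2 fold change, ERRg over GFP, was -0.48 over the 10 genes and 0.09 over all genes tested. All 10 are protein coding, while the shares and the median over all tested genes also cover genes that are not. Over 13426 tested coding genes the median was -0.30, and their shares with TMM alone are not given here. In 7 of the 10, DUSP4, DUSP5, SPRY1, SPRY2, SPRED2, ETV4 and ETV5, every ERRg library was below every GFP library, which held for 34.6% of all tested genes, and in none was every ERRg library above, which held for 33.9%.

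**Figure D1:**
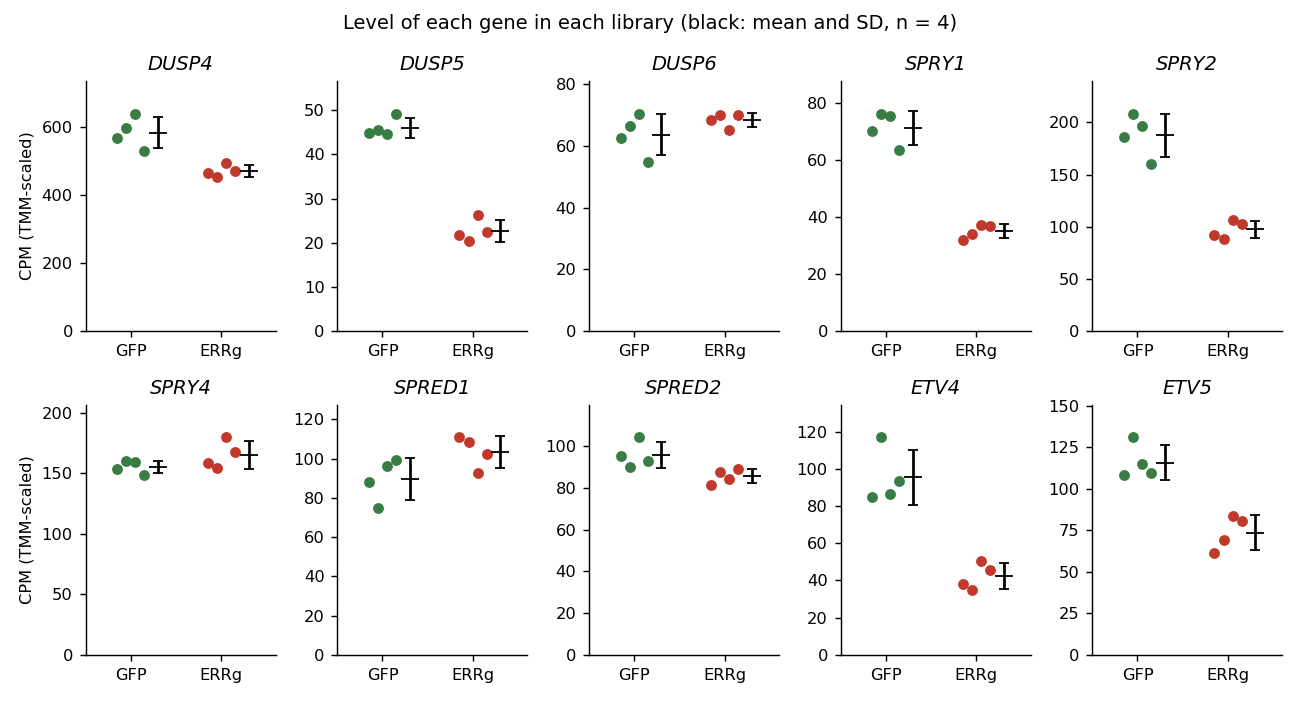
Level of the 10 genes in each of the 8 libraries, in CPM on TMM-scaled library sizes, on linear axes from 0; points are libraries, and black bars are the mean and SD of 4 libraries. The ERRg libraries of SPRY1 lie between 32.0 and 37.3 CPM against 63.3 to 76.2 CPM in GFP, while those of DUSP6 and SPRY4 overlap with GFP.

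GC content went with the fold changes of all coding genes, and this bears on how the 10 are read. Among 13426 tested coding genes, the median log2 fold change was 0.51 for genes with a longest transcript of 38% to 40% GC and -1.20 for genes of 60% to 62% GC. A second fit therefore gave each library its own offsets for GC content, transcript length and gene span. In it 5 of the 10 genes were lower, SPRY1, SPRY2, SPRED1, ETV4 and ETV5, where 41.7% of coding genes were lower. DUSP4, DUSP6 and SPRY4 were higher, where 30.4% of coding genes were higher. SPRY1, SPRY2, ETV4 and ETV5 were lower in both fits, DUSP4 was called in opposite directions, and DUSP5 lost its call. Of 7976 coding genes called in both fits, 869 were called in opposite directions. The median over the 10 with offsets was -0.16, beside -0.08 over all coding genes of that fit, whose median without offsets was -0.30.

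**Figure D2:**
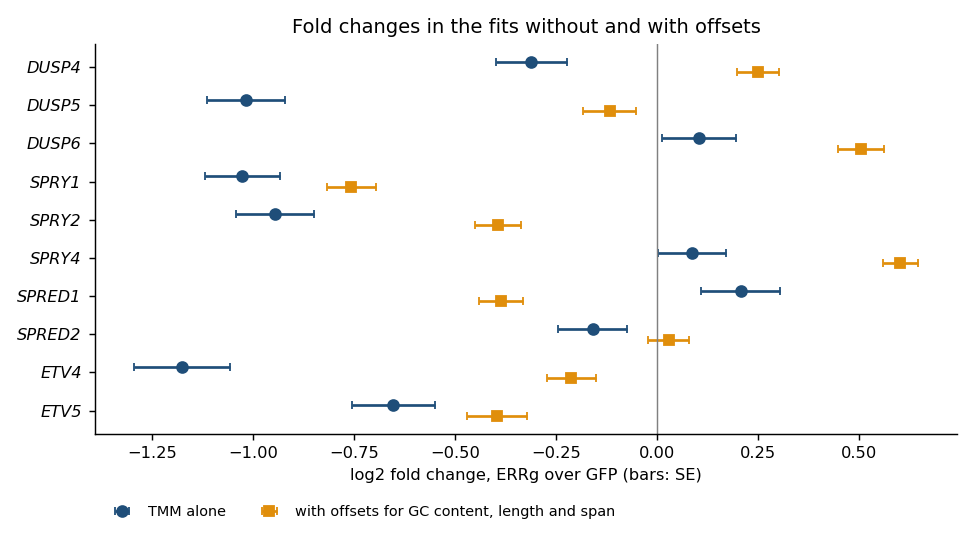
Log2 fold change, ERRg over GFP, of the 10 genes with TMM alone (circles) and with the offsets (squares); bars are standard errors. SPRY1, SPRY2, ETV4 and ETV5 are below 0 in both fits, and DUSP4 lies at -0.31 and 0.25.

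**Figure D3:**
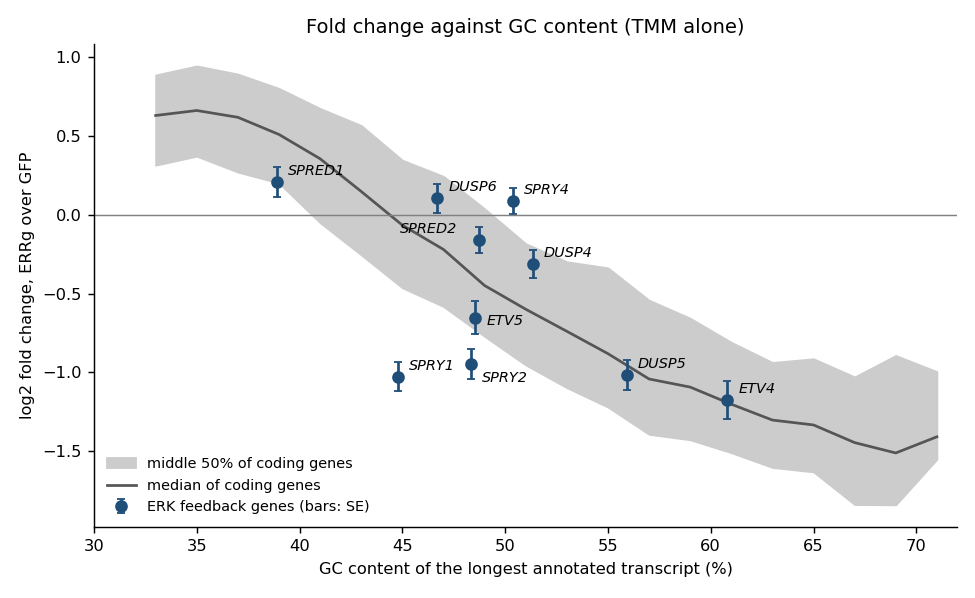
Log2 fold change with TMM alone against the GC content of the longest annotated transcript; the line and the grey band are the median and the middle 50% of coding genes in bins of 2 percentage points, and points with bars are the 10 genes with their standard errors. SPRY1 and SPRY2 lie below the band, ETV4 and DUSP5 lie near the line, and SPRY4 and DUSP4 lie above the line.

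DUSP4 (ENSG00000120875.9, chromosome 8, 29333064 to 29350668 on GRCh38, minus strand, protein coding) encodes the nuclear phosphatase that made up most of the reads of its family. It had 569, 598, 640.0 and 530.4 CPM in GFP replicates 1 to 4 and 465, 452, 495 and 472 CPM in ERRg replicates 1 to 4. All ERRg libraries were below all GFP libraries, with the nearest pair GFP replicate 4 and ERRg replicate 3. The means were 584 ± 46.4 and 471 ± 17.6 CPM (SD, n = 4 each), and DUSP4 fell by 0.31 on the log2 scale (SE 0.09, edgeR adjusted p = 0.00334). The direction turned with the offsets, to 0.25 (SE 0.05, adjusted p = 3.35e-04), and with library totals as the sole scaling (0.09, adjusted p = 0.338), and upper-quartile factors gave -0.01 (adjusted p = 0.94). Its transcript has 51.3% GC, and coding genes within 1 percentage point of that had a median log2 fold change of -0.62, so DUSP4 stood at percentile 69.4 of its GC neighbours.

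DUSP5 (ENSG00000138166.6, chromosome 10, 110497838 to 110511544, plus strand) encodes the other nuclear phosphatase, which is selective for ERK. It had 44.7, 45.4, 44.5 and 49.2 CPM in GFP and 21.8, 20.3, 26.3 and 22.5 CPM in ERRg, in the order of the replicates. The groups were far apart compared with their spread. The means were 46.0 ± 2.18 and 22.7 ± 2.54 CPM, and DUSP5 fell by 1.02 on the log2 scale (SE 0.10, edgeR adjusted p = 7.91e-09). With the offsets it was at -0.12 (SE 0.07, adjusted p = 0.12), and its call was lost, while with an offset for GC content alone it was still called lower at -0.21 (adjusted p = 0.00664). At 55.9% GC, its neighbours had a median of -0.96, and DUSP5 was at percentile 45.3 among them. Its pseudogenes DUSP5P1 and DUSP5P2 had at most 7 reads in a library, against at least 529 of DUSP5.

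DUSP6 (ENSG00000139318.8, chromosome 12, 89347232 to 89353271, minus strand) encodes the cytoplasmic phosphatase that binds ERK and is widely used as a readout of ERK output. It had 62.7, 66.3, 70.5 and 55.0 CPM in GFP and 68.5, 69.9, 65.1 and 70.2 CPM in ERRg. The ERRg values lay inside the range of the GFP values. The means were 63.6 ± 6.59 and 68.4 ± 2.34 CPM, and the log2 fold change of 0.11 (SE 0.09, edgeR adjusted p = 0.301) did not pass the test. DUSP6 was, however, called higher with the offsets at 0.50 (SE 0.06, adjusted p = 3.17e-07), and without GFP replicate 4 the value was -0.03 and not called. Coding genes of like GC content (46.7%) had a median of -0.20, and DUSP6 was at percentile 66.7. An antisense gene, AC024909.2, shares 1875 exon bases with DUSP6. It had at most 57 reads in a library against at least 1335 of DUSP6, and whether the counting used strand is not stated. AC024909.2 was called lower in ERRg (log2 fold change -1.11, edgeR adjusted p = 0.00794), with overlap between the groups.

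The 3 phosphatases shifted against each other. Ratios of read counts within a library do not depend on how libraries are scaled, so 8 ratios within the families were tested by exact permutation, two-sided. A p of 0.0286 is the smallest possible and states only that the groups did not overlap. Of all tested single genes, 34.6% were lower and 33.9% higher in ERRg without overlap. How often ratios of other gene pairs separate the groups was not tested, so a separation is not read as particular to these families. The log2 ratio of DUSP5 to DUSP6 was -0.46 ± 0.21 in the GFP libraries and -1.60 ± 0.20 in the ERRg libraries (SD, 4 each), a difference of -1.13 (exact permutation p = 0.0286, 0.0327 adjusted over the 8 ratios). The ratio of DUSP4 to DUSP6 differed by -0.42 and that of DUSP4 to DUSP5 by 0.71, with the same p-values and no overlap between groups. In the fit with offsets these differences in fold change were -0.62, -0.25 and 0.37, in the same directions. DUSP5 made up 6.67% ± 0.783 of the reads of the 3 genes in GFP and 4.03% ± 0.317 in ERRg, DUSP6 9.15% ± 0.328 and 12.2% ± 0.759, and DUSP4 84.2% ± 0.485 and 83.8% ± 0.448.

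SPRY1 (ENSG00000164056.11, chromosome 4, 123396795 to 123403760, plus strand) encodes a Sprouty inhibitor of receptor tyrosine kinase signalling. It had 70.3, 76.2, 75.5 and 63.3 CPM in GFP and 32.0, 34.0, 37.3 and 36.8 CPM in ERRg. All ERRg libraries were far below the GFP range. The means were 71.3 ± 5.94 and 35.01 ± 2.47 CPM, and SPRY1 fell by 1.03 on the log2 scale (SE 0.09, edgeR adjusted p = 4.18e-09). With the offsets it was at -0.76 (SE 0.06, adjusted p = 4.41e-09). At 44.8% GC, where the median of neighbouring genes was -0.06, SPRY1 stood at percentile 5.92, the lowest of the 10 genes.

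SPRY2 (ENSG00000136158.12, chromosome 13, 80335976 to 80340951, minus strand), a Sprouty that binds CBL and GRB2, had 186, 208, 196 and 160.2 CPM in GFP and 91.9, 88.7, 107 and 103 CPM in ERRg. The groups did not overlap. The means were 188 ± 20.5 and 97.4 ± 8.49 CPM, and SPRY2 fell by 0.95 on the log2 scale (SE 0.10, edgeR adjusted p = 2.40e-08). With the offsets it was at -0.39 (SE 0.06, adjusted p = 6.51e-06), and it stood at percentile 14.2 of coding genes of like GC content (48.3%, median -0.38).

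SPRY4 (ENSG00000187678.10, chromosome 5, 142310427 to 142326455, minus strand), the remaining Sprouty gene of the 10, had 154, 159.9, 159 and 149 CPM in GFP and 158, 154, 179.8 and 168 CPM in ERRg. The groups overlapped, with ERRg replicates 3 and 4 above all GFP libraries. The means were 155 ± 5.04 and 165 ± 11.3 CPM, and the log2 fold change of 0.09 (SE 0.08, edgeR adjusted p = 0.351) did not pass the test. The value was -0.0049 without GFP replicate 1 and -0.0037 without GFP replicate 4, not called, and with the offsets SPRY4 was higher at 0.60 (SE 0.04, adjusted p = 1.60e-09). The longest annotated transcript, from which its GC content was taken, has 1 exon. Coding genes of like GC content (50.4%) had a median of -0.57, and SPRY4 was at percentile 81.5. The antisense gene SPRY4-AS1 shares no exon base with SPRY4 and was higher in ERRg (log2 fold change 0.48, edgeR adjusted p = 3.95e-04). SPRY4-AS1 was not in the fit with offsets, and whether reads of SPRY4 outside its exons entered its count was not tested.

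The balance among the Sproutys turned towards SPRY4. SPRY4 made up 37.6% ± 1.73 of the reads of the 3 genes in GFP and 55.5% ± 0.611 in ERRg, SPRY2 45.2% ± 1.62 and 32.7% ± 0.577, and SPRY1 17.2% ± 0.218 and 11.8% ± 0.418 (SD over 4 libraries). SPRY2 had the most reads in each GFP library and SPRY4 in each ERRg library. The log2 ratio of SPRY4 to SPRY2 was -0.28, -0.38, -0.30 and -0.10 in GFP and 0.78, 0.80, 0.76 and 0.71 in ERRg, a difference of 1.03 (exact permutation p = 0.0286, 0.0327 adjusted). That of SPRY4 to SPRY1 differed by 1.11 with the same p-values. With the offsets the differences in fold change were 1.00 and 1.36, in the same direction. The ratio of SPRY1 to SPRY2 differed by -0.08, the groups overlapped, and the exact permutation p was 0.0857. With the offsets the difference in fold change of SPRY1 and SPRY2 was larger, at -0.36, and was not tested. Summed CPM of the 3 genes was 414 ± 31.3 in GFP and 298 ± 21.8 in ERRg.

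**Figure D4:**
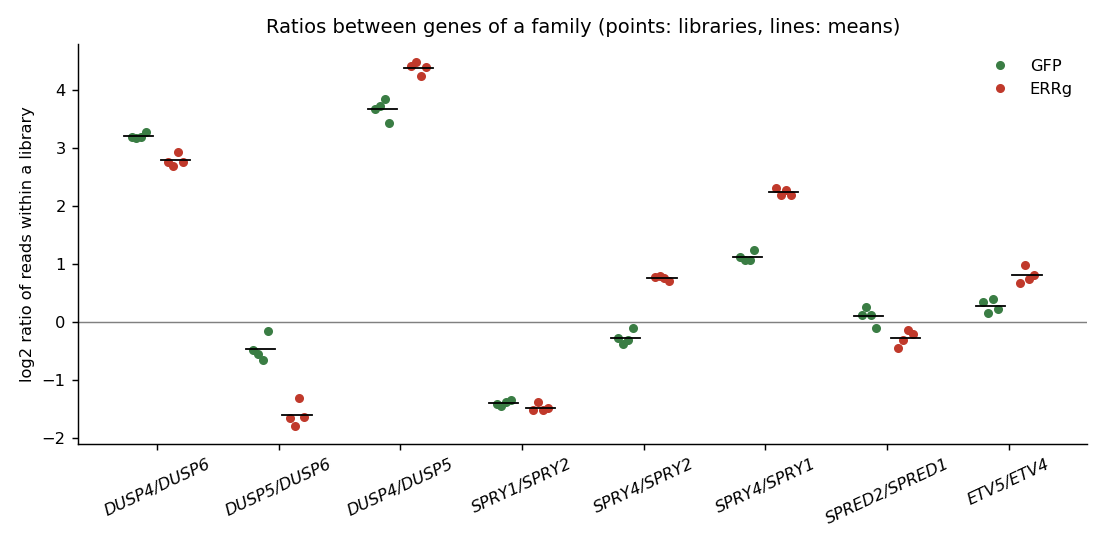
Log2 ratio of read counts between 2 genes of a family in each library; points are libraries (green GFP, red ERRg) and lines are means of 4. The ratios of SPRY4 to SPRY2 and to SPRY1 differ by 1.03 and 1.11 between the groups, and the ratio of SPRY1 to SPRY2 overlaps.

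SPRED1 (ENSG00000166068.13, chromosome 15, 38252326 to 38357249, plus strand), the protein that recruits the RAS inactivator NF1 to the membrane, had 87.9, 74.9, 96.3 and 99.2 CPM in GFP and 111, 108, 92.7 and 102 CPM in ERRg. Only ERRg replicate 3 lay below a GFP library. The means were 89.6 ± 10.9 and 103 ± 8.03 CPM, with a log2 fold change of 0.21 (SE 0.10, edgeR adjusted p = 0.0605). Without ERRg replicate 3 it was 0.24 and passed the test (adjusted p = 0.0275). The direction turned with the offsets, where SPRED1 was lower at -0.39 (SE 0.05, adjusted p = 5.36e-06). Its transcript has the lowest GC content of the 10 (38.9%), its neighbours had a median of 0.52, and it stood at percentile 25.4 among them.

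SPRED2 (ENSG00000198369.10, chromosome 2, 65310851 to 65432637, minus strand), its paralog, had 95.4, 90.0, 104 and 92.9 CPM in GFP and 81.4, 87.7, 84.5 and 88.9 CPM in ERRg. Each ERRg library was below each GFP library by a small margin. The means were 95.6 ± 6.16 and 85.6 ± 3.40 CPM, with a log2 fold change of -0.16 (SE 0.08, edgeR adjusted p = 0.0948), which did not pass the test. Coding genes of like GC content (48.7%) had a median of -0.42, and SPRED2 was at percentile 63.2. Leaving out any single GFP library gave a call (-0.24, -0.24, -0.21 and -0.24 without GFP replicates 1, 2, 3 and 4, adjusted p from 0.0179 to 0.048). DUSP4 was also lower in each of these fits (from -0.350 to -0.425, against -0.31), as was DUSP5, so the shift was not particular to SPRED2. With the offsets the value of SPRED2 was 0.03 (adjusted p = 0.615). The log2 ratio of SPRED2 to SPRED1 was 0.10 ± 0.15 in GFP and -0.27 ± 0.14 in ERRg (exact permutation p = 0.0286, 0.0327 adjusted). With the offsets the difference in fold change was 0.41, the opposite direction.

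ETV4 (ENSG00000175832.13, chromosome 17, 43527844 to 43579620, minus strand) encodes an ETS activator of the PEA3 group. It had 85.0, 117, 86.6 and 93.7 CPM in GFP and 38.3, 35.01, 50.3 and 45.6 CPM in ERRg. GFP replicate 2 was the highest, and no ERRg library reached the GFP range. The means were 95.5 ± 14.7 and 42.3 ± 6.93 CPM, and ETV4 fell by 1.18 on the log2 scale (SE 0.12, edgeR adjusted p = 2.10e-08), the largest fold change of the 10. With the offsets it was at -0.21 (SE 0.06, adjusted p = 0.0046), and with an offset for GC content alone at -0.11 (adjusted p = 0.116). Its transcript has the highest GC content of the 10 (60.8%), and at percentile 51.6 it lay in the middle of its neighbours, whose median was -1.20. ETV4 shares 68 exon bases with DHX8 on the opposite strand, which also fell (-0.97).

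ETV5 (ENSG00000244405.8, chromosome 3, 186046308 to 186110318, minus strand), of the same group of ETS activators, had 108, 131, 115 and 109 CPM in GFP and 61.2, 69.2, 83.7 and 80.4 CPM in ERRg. The groups did not overlap, and ERRg replicates 1 and 2 were below ERRg replicates 3 and 4. The means were 116 ± 10.5 and 73.6 ± 10.3 CPM, and ETV5 fell by 0.65 on the log2 scale (SE 0.10, edgeR adjusted p = 9.25e-06). With the offsets it was at -0.40 (SE 0.07, adjusted p = 1.20e-04). It shares 164 exon bases with DGKG, which had at most 8 reads in a library. The antisense gene ETV5-AS1 shares no exon base with ETV5 and was higher in ERRg (1.39, edgeR adjusted p = 9.92e-06). ETV5-AS1 was not in the fit with offsets either, and whether reads of ETV5 outside its exons entered its count was not tested. ETV5 made up 54.9% ± 1.90 of the reads of the pair in GFP and 63.5% ± 2.11 in ERRg, a difference in log2 ratio to ETV4 of 0.52 (exact permutation p = 0.0286, 0.0327 adjusted) that was -0.18 with the offsets.

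Levels of different genes were compared as CPM per kb of the longest annotated transcript. DUSP4 was the most abundant at 106 ± 8.37 in GFP and 85.1 ± 3.19 in ERRg, and SPRY2 was next in both groups (69.3 ± 7.56 and 36.0 ± 3.14). In GFP ETV4 followed at 39.3 ± 6.07. SPRY4 (29.1 ± 0.942), ETV5 (28.1 ± 2.56) and SPRY1 (27.4 ± 2.28) came next and did not differ beyond their spread. SPRED2 was at 23.3 ± 1.503, DUSP5 at 18.0 ± 0.853, DUSP6 at 14.5 ± 1.497 and SPRED1 at 11.5 ± 1.40. In ERRg SPRY4 (30.9 ± 2.12) came next after SPRY2 and DUSP5 (8.88 ± 0.991) was the lowest, with SPRY1 (13.4 ± 0.949) beside SPRED1 (13.3 ± 1.03).

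The 5 coding genes whose log2 CPM followed DUSP6 most closely over the 8 libraries, among 11690 candidates, were the exocyst subunit gene EXOC4 (Pearson r = 0.97), MYOF (0.95), CYP2U1 (0.94), HSD17B4 (0.93) and FHIP1A (0.93). The points share the libraries and their scaling, and none of these genes was called (edgeR adjusted p from 0.108 to 0.452).

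The rest of the pathway was described through 9 lists with 97 genes, of which 84 passed the filter. Of these, 49 were lower and 22 higher with TMM, and 39 were lower and 24 higher with the offsets. Over all tested genes 35.9% were lower and 38.8% higher with TMM, and over all coding genes 41.7% were lower and 30.4% higher with the offsets, so the counts with offsets lie near the shares of coding genes at large. All 84 genes are protein coding, but the TMM shares also cover genes that are not. Coding genes had a median of -0.30 with TMM, against 0.09 over all tested genes. The TMM and offset shares thus rest on different sets of genes, and their difference is not the effect of the offsets alone. The counts of single lists below are descriptions to be read against the same 4 shares, with this limit. Because GC content moves with these calls, each list is given in both fits.

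Among the other inhibitors, 3 of 4 tested MAP kinase phosphatases were lower with TMM (median -1.16), and with offsets 2 were lower and 1 higher (median -0.13). DUSP10, which acts mainly on JNK and p38, was lower in both fits (-1.44 and -1.32), as was DUSP7 (-1.44 and -0.33), while DUSP1, an immediate-early phosphatase, was lower with TMM alone (-0.88, against 0.07 with offsets). DUSP8 and DUSP16 are listed at 0, DUSP9 had at most 4 reads, and a 0 in this table was not read as absence. SPRED3 was lower with TMM alone (-1.01 and 0.01), and IL17RD, the receptor-like inhibitor SEF, was lower in both fits (-0.58 and -0.61), as was found for SPRY1 and SPRY2. SPRY3 had at most 17 reads in a library and was not tested. Of 6 tested RAS GTPase-activating proteins, which switch RAS off, 4 were higher and 1 lower with TMM (median 0.65) and 2 were higher and 1 lower with offsets (median 0.09). RASA1 was higher in both fits (0.83 and 0.60), DAB2IP lower in both (-1.05 and -0.34), and NF1, the partner of SPRED1, was higher with TMM alone (0.71 and 0.08). RASAL1 had at most 7 reads in a library and RASA3 at most 1.

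Upstream of ERK, 10 of 18 receptor tyrosine kinases were lower and 4 higher with TMM (median -0.55), and 8 were lower and 5 higher with offsets (median -0.13). PDGFRB (-1.71 and -0.93), FGFR1 (-1.20 and -0.81) and FGFR4 (-1.70 and -0.44), receptors for platelet-derived and fibroblast growth factors, were lower in both fits. Of 9 adaptors and exchange factors, 6 were higher and 3 lower with TMM (median 0.58), and 5 were higher and 3 lower with offsets (median 0.15). The adaptors SHC1 (-1.44 and -0.50) and GRB2 (-0.86 and -0.41) were lower in both fits, and the RAS activator SOS2 was higher in both (0.81 and 0.32). RASGRF1 had at most 6 reads. Of 10 tested genes of RAS, RAF, MEK, ERK and scaffolds, 7 were lower and 3 higher with TMM (median -0.48), and 5 were lower and 2 higher with offsets (median -0.12). MAPK3, which encodes ERK1, fell from 62.5 ± 6.86 to 18.3 ± 3.32 CPM (-1.77, and -0.57 with offsets). MAP2K2, which encodes MEK2, fell from 201 ± 23.9 to 70.2 ± 12.4 CPM (-1.52 and -0.52), and ARAF fell by 1.27 and, with offsets, by 0.20. KSR2 had at most 15 reads in a library and HRAS, a gene that most cells express, had at most 2, and neither was tested. Whether the cells or the counting set such values near 0, here and for DUSP16 and IER3, was not tested.

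Downstream of ERK, 14 of 17 tested ERK-responsive genes were lower and 1 higher with TMM (median -0.82). With offsets 7 were lower and 6 higher (median -0.21), and the 7 of 17 are about the share of all coding genes that were lower (41.7%). The immediate-early gene IER2 fell from 31.9 ± 4.09 to 9.02 ± 1.28 CPM (-1.83, and -0.58 with offsets), and CCND1, which encodes cyclin D1, from 461 ± 37.8 to 207 ± 4.50 CPM (-1.15 and -0.59). TRIB1, a pseudokinase gene, rose from 16.5 ± 1.03 to 42.9 ± 3.46 CPM (1.38 and 2.15). EGR3 had at most 12 reads in a library, EPHA4 at most 2, IER3 is listed at 0, and none of them was tested. Of 7 tested kinases that ERK activates, 3 were lower and 2 higher with TMM (median 0.15), and 4 were lower and 1 higher with offsets (median -0.37), with RPS6KA4 (-1.81 and -0.53), MKNK2 (-1.51 and -0.37) and RPS6KA2 (-1.03 and -0.66) lower in both. RPS6KA1 had at most 1 read. Of 11 other ETS factors and partners of CIC, 6 were lower and 2 higher with TMM (median -0.26), and 8 were lower and 2 higher with offsets (median -0.37). CIC, the repressor of ETV4 and ETV5 that ERK inactivates, fell from 184 ± 18.1 to 52.5 ± 10.8 CPM (-1.81 and -0.72). The ETS repressor ERF (-1.85 and -0.53) and the ETS activator ELK1 (-1.31 and -0.38) were lower in both fits.

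**Figure D5:**
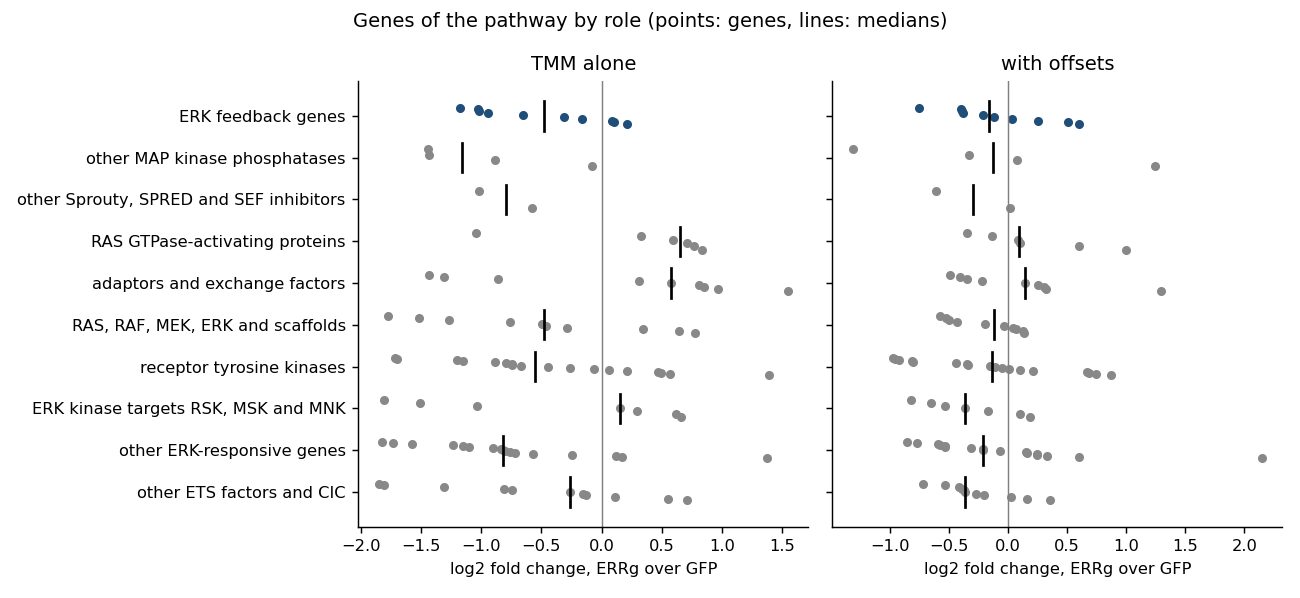
Log2 fold change, ERRg over GFP, of the 10 feedback genes (blue) and of the 84 tested genes of 9 lists by role (grey), with TMM alone on the left and with offsets on the right; points are genes and lines are medians. The median of ERK-responsive genes is -0.82 on the left and -0.21 on the right, and that of the feedback genes is -0.48 and -0.16.

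Scaling set where 0 lay for all of these genes. Upper-quartile factors put the median of all tested genes at 0.40 and library totals put it at 0.50, against 0.09 with TMM. SPRY1, SPRY2, DUSP5, ETV4 and ETV5 were lower under each of these scalings, from -0.65 to -0.25 for ETV5 and from -1.18 to -0.77 for ETV4. DUSP6, SPRY4 and SPRED1 were called higher under the upper-quartile and the library-total scaling, and where genes needed at least 1 CPM in 4 libraries to be tested. When the share of reads outside exons, on which the groups do not overlap, entered as a covariate, none of the 10 was called by edgeR (6 genes higher and 2 lower in all), and none had a log2 fold change shown to exceed 1 in size.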

How the data were processed

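RNA of 8 libraries was sequenced. Ribosomal RNA was removed and strand-preserving libraries were made, per the labels' protocols. The submitters' processing notes name STAR 2.7.8a, HTSeq 0.11.3, Trim Galore 0.6.6, DESeq2 and CASAVA, and the build GRCh38. The authors deposited raw counts of reads per gene, not normalised. No annotation or strand setting is given in the sources used here. The 5 summary lines that name no gene entered neither library sizes nor tests, and their largest part, reads outside annotated exons, is given in the report. Symbols matched 60463 identifiers, and 58488 were in GENCODE release 29, the source of positions, GC content, length and span.

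Counts were tested with edgeR 4.0.16 in R 4.3.3 (quasi-likelihood, TMM, filterByExpr, group as the sole term, two-sided, Benjamini-Hochberg over 21993 genes, adjusted p under 0.05). SE is the size of the log2 fold change divided by the root of F. The offset fit, on coding genes, removed from each library its spline trend of log2 CPM on GC content, length and span, which would also remove a response that follows these properties. Ratios used a pseudocount of 0.5 reads and exact tests over 70 arrangements (scipy 1.17.1). The edgeR fit without offsets was also run on simulated counts. These had few changed genes, evenly up and down, and no trend with GC content, unlike the data here. They therefore cannot show how the fit performs on these libraries. Within groups no libraries were duplicates (chi-square per degree of freedom 2.90 to 40.0). ERRg replicates 1 and 2 (2.90) and 3 and 4 (5.03) were closer to each other than across these pairs (10.0 to 22.6), so they may not be equally independent.

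Always named were the 10 genes and ESRRG. From each of the 9 pathway lists the 3 tested genes with the smallest edgeR p and any gene under the filter could be named, as were the 5 coding genes most like DUSP6. The genes overlapping the 10, and their pseudogenes, were named after their values were seen. The 10 genes and the lists were chosen with earlier results of these data known. Alternatives were DESeq2 1.42.0 (size factors and Wald test), limma-voom (limma 3.58.1), upper-quartile factors, library totals, other filters, offsets, covariates, a replicate block, a stricter threshold, a test against a log2 change of 1 and each library left out. Leaving out the ERRg pairs was added after results were seen. The value of 1 marker gene is not reported here.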

Additional observations from a re-analysis of the deposited data

Results flagged for a closer look

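The log2 ratio of DUSP4 to DUSP6 in GFP replicate 4 was 3.27, and the nearest of the other 3 GFP libraries was at 3.18. The gap was 0.896 of the group's whole range, above Dixon's 95% critical value for 4 samples. It was the only flag among 38 groups of values tested, and chance flags about 1 in 20 such groups. All 4 ERRg libraries, at 2.69 to 2.93, were below the 4 GFP libraries with or without this one.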

How the results depend on the processing

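Of the refitted fold changes of the 10 genes, 183 kept their direction and call, 24 gained a call, 12 lost one and 21 reversed. All 72 refitted family ratios stayed on their side of the threshold or, with a library left out, kept their direction, and those of SPRY4 to SPRY2 ranged from 0.99 to 1.08. These refits used another pseudocount or left out a library, and none used the offsets. With the offsets the differences in fold change were reversed for SPRED2 to SPRED1 (0.41, against -0.37) and for ETV5 to ETV4 (-0.18, against 0.52). The other pairs kept their direction. Genes of the 10 called lower numbered 6, between 5 and 7 elsewhere (SPRED2 too with DESeq2 size factors), and 0 with the covariate or against a log2 fold change of 1. The genes called lower were not the same in all fits. With all offsets SPRED1 was among them and DUSP4 and DUSP5 were not. With the GC offset alone SPRED1 and DUSP5 were among them, and DUSP4 and ETV4 were not. Genes of the 10 called higher numbered 0 in the fit of the main results (edgeR, TMM, filterByExpr, no offsets). They numbered 3 with at least 1 CPM in 4 libraries, 1 with limma-voom, 4 with the GC offset and 3 with all offsets. These fits also used TMM. Library totals gave 4 and upper-quartile factors 3. Leaving out single libraries or the ERRg pairs gave 0 to 1 higher (SPRED1, without ERRg replicate 3 or replicates 3 and 4) and 6 to 7 lower. Over all genes, 8529 were higher and 7899 lower, against 6 and 2 with the covariate and 1692 and 2302 against a fold change of 1, while 4283 were higher with the GC offset and 4080 with all offsets, both fewer partly because coding genes alone were tested. Reversed values were as follows. DUSP4 had 0.093 with library totals, 0.20 with the GC offset, 0.25 with all offsets and 0.20 with the covariate. SPRED1 had -0.26, -0.39 and -0.85 with the GC offset, all offsets and the covariate. SPRED2 had 0.24 with library totals, 0.16 with the GC offset, 0.029 with all offsets and 0.14 with upper-quartile factors. With the covariate SPRY2 had 0.079, ETV4 0.39 and ETV5 0.60. No value with the covariate, on which the groups do not overlap, was called, those of DUSP4 and SPRED1 included. Across fits without a library DUSP6 ranged from -0.028 (without GFP replicate 4) to 0.12 and SPRY4 from -0.0081 to 0.14 (0.11 at most with a single library left out). SPRY4 had -0.0049 without GFP replicate 1, -0.0037 without GFP replicate 4 and -0.0081 without ERRg replicates 3 and 4. Apart from the number of genes tested, the cause was not tested.

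Replicate numbers did not pair the libraries (correlations of deviations 0.09, -0.16, -0.08 and -0.05 for numbers 1 to 4, and 1 of 4 libraries of each group correlated best with its own number). With the replicate block, 6 of the 10 were lower and 0 higher, among 8191 higher and 7653 lower genes. The block with all offsets gave 3 higher of the 10 and 3950 higher genes, with 0.25 for DUSP4, -0.38 for SPRED1 and 0.029 for SPRED2.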
